A study of Mus musculus with 6 samples.

Results

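The genes described are the collagens, laminins and integrins of CT26.WT cells, together with fibronectin (Fn1), Sparc, decorin (Dcn) and tenascin C (Tnc). They were taken from the deposited table by symbol: every protein-coding row named as a collagen chain, a laminin chain or an integrin chain, plus these 4 genes, with a count above 0 in any library. The rule found 79 of the 25407 rows. Of these, 53 were matrix genes (40 collagens, 9 laminins and the 4 named genes) and 22 were integrin chains (13 alpha and 9 beta). A further 4 rows (Itgb1bp1, Itgb1bp2, Itgb3bp and Itgbl1) matched only by the start of the symbol, are not integrin chains and were counted apart. The rows just inside the rule were faint: Itgb2l reached 3 estimated counts in its highest library and Lama2 reached 4. An eightieth name, Col27a1, was left out because its row was not listed as protein coding.

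CT26.WT is an established mouse colon carcinoma line grown as a culture. One group of 3 libraries came from control cells and the other group of 3 from cells given Cu2O@AuMn@HA with NaHS and NIR, so the parts of that combination cannot be told apart. The sources used here give no doses, exposure times or handling of the control cells. Poly(A) RNA was sequenced, and the labels do not say whether the 3 libraries of a group came from separate cultures, so each p-value reflects library-to-library spread that may be technical.

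The extracellular matrix is the network of secreted proteins that cells build around themselves. Fibril-forming collagens give it tensile strength, whereas type IV collagen and laminins assemble into the sheet-like basement membrane, and fibronectin bridges matrix and cells. Integrins, each a pair of 1 alpha and 1 beta chain, are the main receptors that hold cells to these proteins, and tumour cells in culture make both the matrix and the receptors.

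Promoter sequence is shown for 4 members that span the directions described below: Col1a2 and Col3a1 were lower in treated cells, and Tnc and Itgb1 were higher. The runs of Sparc, which was lower, and Lamb2, which was higher, were also read. They held no match to the motifs named below and are not shown. Each run is the 250 bases before the RefSeq transcript start (GRCm38.p6), written 5′ to 3′ on the gene's strand. Capitals mark matches, on either strand, to any of 5 motifs: ACGTG (core of the hypoxia response element), TGANTCA (AP-1), GGAATG (TEAD), CCAAT (NF-Y) and TATAAA (the TATA box). Col1a2 lies at chr6:4505368-4505617 on the plus strand, Col3a1 at chr1:45311288-45311537 on the plus strand, Tnc at chr4:64047016-64047265 on the minus strand and Itgb1 at chr8:128685404-128685653 on the plus strand.
Col1a2: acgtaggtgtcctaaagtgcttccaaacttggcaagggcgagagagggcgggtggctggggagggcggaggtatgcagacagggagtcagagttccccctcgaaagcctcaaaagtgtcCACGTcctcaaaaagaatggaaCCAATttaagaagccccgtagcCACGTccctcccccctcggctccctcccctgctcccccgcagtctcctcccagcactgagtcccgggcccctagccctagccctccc
Col3a1: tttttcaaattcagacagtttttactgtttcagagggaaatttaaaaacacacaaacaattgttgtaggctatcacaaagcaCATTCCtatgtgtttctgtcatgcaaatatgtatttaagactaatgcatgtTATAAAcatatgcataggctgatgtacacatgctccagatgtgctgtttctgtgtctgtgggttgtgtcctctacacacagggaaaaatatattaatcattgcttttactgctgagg
Tnc: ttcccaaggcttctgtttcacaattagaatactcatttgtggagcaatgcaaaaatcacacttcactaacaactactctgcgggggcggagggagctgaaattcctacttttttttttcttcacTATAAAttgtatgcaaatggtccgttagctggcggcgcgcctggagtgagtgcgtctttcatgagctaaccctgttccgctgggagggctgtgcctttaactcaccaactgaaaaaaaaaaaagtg
Itgb1: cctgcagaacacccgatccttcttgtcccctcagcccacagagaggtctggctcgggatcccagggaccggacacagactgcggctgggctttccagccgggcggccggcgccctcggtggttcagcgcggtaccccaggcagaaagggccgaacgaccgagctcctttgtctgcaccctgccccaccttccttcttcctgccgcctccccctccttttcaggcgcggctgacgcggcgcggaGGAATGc
The Col1a2 run holds ACGTG at 2 places, both on the opposite strand, and 1 CCAAT. The Col3a1 run holds GGAATG on the opposite strand and a TATAAA, the Tnc run holds a TATAAA, and the Itgb1 run holds a GGAATG next to the start. Base composition differs widely among them: Col3a1 has a GC content of 35.2% and 0 CG dinucleotides, while Itgb1 has 68.0% and 21. Col1a2 lies at 62.0% with 11 CG and Tnc at 44.8% with 8. Over all 32851 RefSeq windows the median was 52.4% GC and 6 CG.

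RefSeq windows were found for 56 of the 79 members, in 62 windows that run from 250 bases before to 50 after the start. ACGTG stood in 6 of the 62 windows, and in 19.6% of all windows. It stood in 0 of the 20 windows of members that were higher in treated cells and in 2 of the 4 windows of members that were lower. GGAATG stood in 8 of the 62 (14.7% of all windows), TGANTCA in 3 (7.81%), CCAAT in 16 (37.4%) and TATAAA in 7 (13.6%). In the 20 windows of higher and the 4 of lower members, GGAATG stood in 3 and 1, and TGANTCA in 1 and 0. CCAAT stood in 6 and 1, and TATAAA in 2 and 1. These matches are descriptions of letters and were not tested.

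In each library 62328377 to 81821380 estimated counts fell on all genes. The members took 0.669 to 0.725% of all counts in the controls and 0.890 to 0.971% after treatment, without overlap. Ribosomal RNA rows took 3.60 to 3.92% of counts in the controls and 0.209 to 0.230% in the treated libraries, and mitochondrial rows 1.25 to 1.86% and 1.96 to 3.45%. The part of these differences in the results was not tested. The RNA is from whole cultures, so fewer cells of a type and less RNA per cell cannot be told apart.

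Among the 62 members with enough counts to test, 22 rose and 6 fell in treated cells at an adjusted p under 0.05, and 34 did not pass. That is 45.2% of the tested members, beside 46.6% of all 16212 rows tested, so the members changed about as often as the table as a whole. By direction, 23.0% of all rows rose and 23.5% fell, beside 35.5% and 9.68% of the tested members. At least a 2-fold change was called for 8 of the 62, and for 15.1% of all rows. The median log2 fold change was 0.26 over the members and 0.06 over all rows. Of the 17 untested members, 12 had at most 12 estimated counts in every library, which is about 3 sequenced fragments. Under upper quartile scaling, which lifted the median of all rows by 0.12, 4688 rows rose and 3028 fell, beside 3735 and 3813 with the scaling used here.

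Matrix and receptor genes rose in nearly equal shares, and falls were called among matrix genes and not among integrins. Of 42 matrix genes tested, 15 rose (35.7%) and 6 fell (14.3%), with a median log2 fold change of 0.29. Of 17 integrin chains tested, 6 rose (35.3%) and 0 fell, with a median of 0.24. At an unadjusted p under 0.05, 7 integrin chains were higher and 0 lower, and DESeq2 called 6 higher and 0 lower. Limma on log2(FPKM + 1) tested only 11 of the chains and called 6 higher and 0 lower. Its 6 were not the same set: it called 3 beta chains in place of 2 and did not test Itgax. Changes of at least 2-fold were called for 7 matrix genes and 1 integrin chain. The difference between both sides was not tested.

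The fibril-forming collagens carried most of the falls. Of 8 tested, 4 fell (Col1a1, Col1a2, Col3a1 and Col5a1), 1 rose (Col5a3) and 3 did not pass, and the median log2 fold change was -0.09. Col3a1, the chain of type III collagen found in elastic tissues (ENSMUSG00000026043, chromosome 1, 45350698 to 45388866, as deposited with no build named), stood at 10.2, 11.9 and 12.1 FPKM in the control libraries and at 4.43, 4.02 and 3.95 FPKM in the treated libraries. The lowest control was more than any treated library, and the 3 treated values lay close together. Its log2 fold change was -1.50 ± 0.09 (SE, adjusted p = 2.9e-06), the deepest fall among all tested members.

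Type I collagen, the main fibrillar collagen of bone and skin, is built from the chains of Col1a1 and Col1a2. Col1a1 (ENSMUSG00000001506, chromosome 11, 94827050 to 94843868) had 30.2, 31.7 and 31.4 FPKM in control and 16.1, 14.4 and 14.7 FPKM in treated libraries. Its groups lay far apart, with a log2 fold change of -1.08 ± 0.08 (adjusted p = 4.9e-06). Col1a2 (ENSMUSG00000029661, chromosome 6, 4504814 to 4541544) had 60.9, 68.0 and 65.0 FPKM in control against 49.4, 43.2 and 47.2 FPKM in treated libraries, and fell by less, by 0.51 on the log2 scale (SE 0.09, adjusted p = 0.00108), or -0.30 with a correction for transcript GC content (adjusted p = 0.00051). Both chains thus were lower without overlap, but not in step: the ratio of Col1a1 to Col1a2 FPKM was 0.496, 0.466 and 0.483 in control and 0.327, 0.333 and 0.311 in treated libraries. The ratio of Col3a1 to Col1a2 was 0.167, 0.175 and 0.186 against 0.0896, 0.0932 and 0.0836.

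Col5a1, a chain of type V collagen that nucleates fibrils, had 18.4 ± 0.692 FPKM (SD, n = 3) in control and 15.0 ± 1.07 FPKM in treated cells, a log2 fold change of -0.33 ± 0.08 (adjusted p = 0.00839). It was named after its values were seen. Its call was lost under upper quartile scaling (adjusted p = 0.0522), without both libraries numbered 2 (adjusted p = 0.0606) with the GC correction (log2 fold change -0.14) and with that correction joined with the library number as a block (adjusted p = 0.102). Col5a3, another type V chain, went the other way at a far lower level: 0.275, 0.551 and 0.324 FPKM in control and 0.864, 0.729 and 0.752 FPKM in treated libraries. Its log2 fold change was 0.98 ± 0.27 (adjusted p = 0.0141), and the call was lost without control 3 (adjusted p = 0.0568) and without treated 1 (adjusted p = 0.0567). Col11a2, Col2a1 and Col5a2 had mean levels under 1 FPKM in both groups and did not pass. The GC correction called Col11a2 higher (log2 fold change 0.53, adjusted p = 0.032). With that correction 2 of the 8 fibril-forming collagens tested were called higher and 3 lower. Col24a1 was too faint to test.

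**Figure D1:**
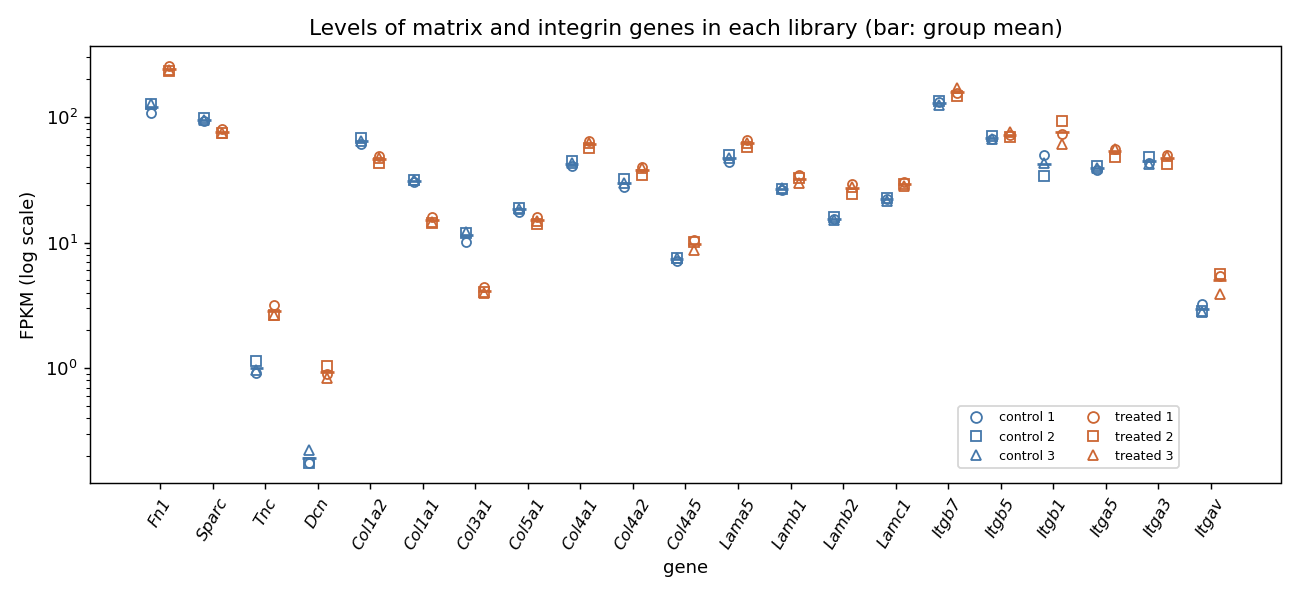
FPKM on a log axis for the more abundant members in each of the 6 libraries; symbol shapes give the library number, colours the group, and dashes the group mean. Fn1 separates widely upward, Col1a1 and Col3a1 separate downward, and Itgb5 and Itga3 overlap between groups.

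Type IV collagen, the network collagen of basement membranes, was higher. Of the 6 genes 4 were tested, 3 rose (Col4a1, Col4a2 and Col4a5) and 0 fell; at an unadjusted p under 0.05 and with DESeq2 the counts were again 3 and 0. Col4a1 (ENSMUSG00000031502, chromosome 8, 11248423 to 11362826) had 40.5, 44.4 and 43.1 FPKM in control and 63.9, 56.3 and 61.7 FPKM in treated libraries. Every treated library exceeded every control, with a log2 fold change of 0.47 ± 0.09 (adjusted p = 0.00155).

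Col4a2 (ENSMUSG00000031503, chromosome 8, 11362805 to 11499287), which encodes the partner chain, had 27.8, 32.1 and 29.8 FPKM in control and 39.9, 34.5 and 39.5 FPKM in treated libraries. The groups did not overlap but came close at control 2 and treated 2, and the log2 fold change was 0.31 ± 0.10 (adjusted p = 0.026). Its call was lost without control 1 (adjusted p = 0.116), control 3 (adjusted p = 0.098), treated 1 (adjusted p = 0.11) or treated 3 (adjusted p = 0.0673). Both genes start head to head on opposite strands and share 22 bases in the deposited coordinates. In RefSeq, on GRCm38.p6, their starts share the 22 bases at chr8:11312805-11312826, shown on the plus strand because they are the point from which the pair diverges.
Col4a1 and Col4a2: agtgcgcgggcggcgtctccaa
Reads in that short overlap could be split between the pair, since the sources used here do not state whether counting used strand. The ratio of Col4a1 to Col4a2 FPKM was 1.46, 1.39 and 1.45 in control and 1.60, 1.63 and 1.56 in treated libraries.

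Col4a5, the basement membrane chain of the X chromosome (140258381 to 140472230), had 7.17, 7.56 and 7.49 FPKM in control and 10.5, 10.1 and 8.69 FPKM in treated libraries. Treated 3 was the lowest of its group and still above every control, and the log2 fold change was 0.36 ± 0.08 (adjusted p = 0.00558). Its head-to-head neighbour Col4a6, 1308 bases away, was not tested and reached at most 8 estimated counts. Col4a3 had means of 0.0168 FPKM in control and 0.0131 FPKM in treated cells and did not pass, and Col4a4 was not tested.

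Summed over chains, the fibril-forming collagens stood at 127 ± 6.06 FPKM in control and 82.6 ± 5.51 FPKM in treated cells (SD, n = 3). Type IV collagens stood at 80.02 ± 4.29 FPKM and 108 ± 6.80 FPKM. All collagens together stood at 272 ± 12.4 FPKM and 260.2 ± 16.7 FPKM, which overlapped. The balance between both kinds separated the groups more sharply than the total: the summed FPKM of types I and III over that of type IV was 1.34, 1.33 and 1.35 in control and 0.612, 0.61 and 0.599 in treated libraries. These sums and ratios were given no test. The ratio set chains called lower over a class whose called chains were higher, so its separation restates those calls.

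**Figure D2:**
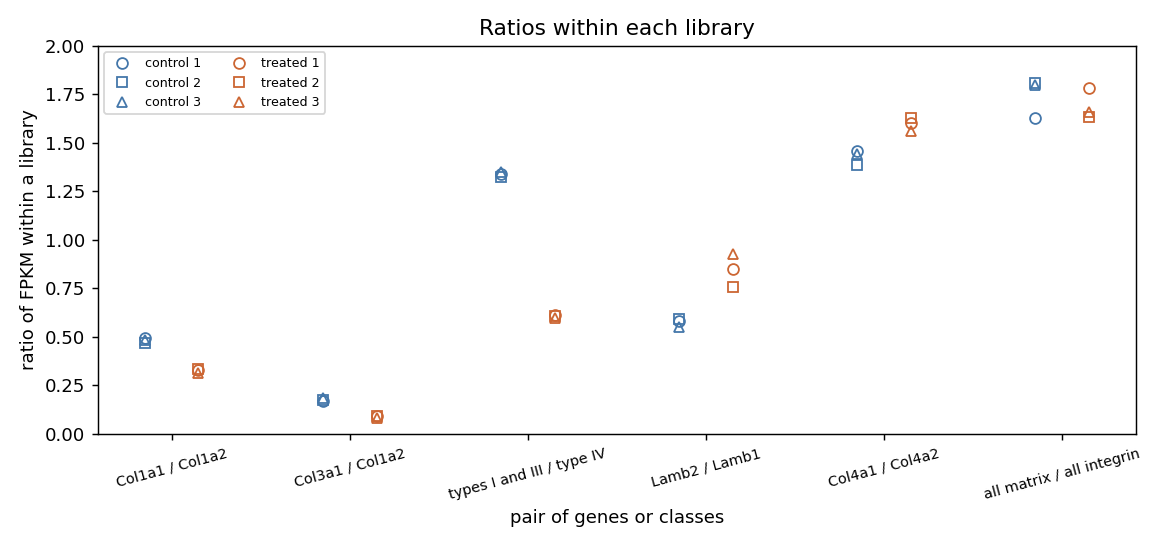
Ratios of FPKM between 2 genes or classes within each library; each point is 1 library, with controls on the left of each pair of columns and treated libraries on the right. The ratio of types I and III to type IV collagen lies near 1.34 in control and 0.607 in treated cells, whereas the ratio of all matrix to all integrin FPKM overlaps between the groups.

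Most of the remaining collagens did not pass the test. Of 25 genes 18 were tested, of which 3 rose, 1 fell and 14 did not pass, with a median log2 fold change of 0.18. Col16a1, a fibril-associated collagen and the most abundant of them, had 26.1, 29.7 and 27.5 FPKM in control and 32.4, 27.5 and 31.3 FPKM in treated libraries, which overlapped (log2 fold change 0.09 ± 0.10, adjusted p = 0.469). With the GC correction it was called (log2 fold change 0.23, adjusted p = 0.00492). Col6a1 of the beaded-filament type VI collagen (adjusted p = 0.157) and Col18a1, the source of endostatin (adjusted p = 0.957), did not pass either. The GC correction called Col18a1 higher (log2 fold change 0.15, adjusted p = 0.0226). With that correction 6 of the 18 were called higher and 1 lower.

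Col8a1, a short-chain collagen of vessel walls and cornea, had 3.13, 2.34 and 2.83 FPKM in control and 4.93, 4.89 and 3.39 FPKM in treated libraries. Treated 3 lay only just above control 1, and the log2 fold change was 0.63 ± 0.14 (adjusted p = 0.00489). The other called members were faint. Col9a3, a cartilage collagen chain, had 0.0544, 0.0770 and 0.0940 FPKM in control and 0.190, 0.226 and 0.216 FPKM in treated libraries (log2 fold change 1.46 ± 0.41, adjusted p = 0.0145), and lost its call without treated 2 (adjusted p = 0.0562). Col14a1, which binds the surface of fibrils, had 0.123, 0.179 and 0.222 FPKM against 0.0897, 0.0418 and 0.0724 FPKM (log2 fold change -1.39 ± 0.39, adjusted p = 0.0141), and lost it without control 3 (adjusted p = 0.0515).

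Col20a1 had 0.698, 0.357 and 0.417 FPKM in control and 0.792, 0.811 and 0.877 FPKM in treated libraries, with a log2 fold change of 0.72 ± 0.25 (adjusted p = 0.0367). Control 1 was near the treated libraries. The call was lost without control 2 (adjusted p = 0.122), control 3 (adjusted p = 0.137), treated 1 (adjusted p = 0.0798), treated 2 (adjusted p = 0.0836) or treated 3 (adjusted p = 0.114). Col20a1 also shares 741 bases with 9230112E08Rik on the same strand, which stood at 2.04 FPKM in control and 1.01 FPKM in treated cells, so its value is uncertain.

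Laminins, the heterotrimers that nucleate basement membranes, were higher in treated cells. Of 8 tested, 5 rose (Lama5, Lamb1, Lamb2, Lamb3 and Lamc1), 0 fell and 3 did not pass; at an unadjusted p under 0.05 and with DESeq2 the counts were also 5 and 0. The median log2 fold change was 0.30. Lamb2 (chromosome 9, 108356935 to 108367729), a beta chain known from the kidney filter and the neuromuscular junction, had 15.3, 16.005 and 15.1 FPKM in control and 29.5, 24.6 and 27.8 FPKM in treated libraries. The groups were well separated, and the log2 fold change was 0.78 ± 0.09 (adjusted p = 7.6e-05).

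Lama5, the alpha chain typical of epithelial and vascular basement membranes, had 44.1, 49.8 and 46.9 FPKM in control and 65.7, 58.2 and 62.0 FPKM in treated libraries (log2 fold change 0.36 ± 0.09, adjusted p = 0.00708). Lamc1, the gamma chain shared by most laminins, had 22.3, 22.8 and 21.5 FPKM against 30.3, 29.1 and 28.2 FPKM (log2 fold change 0.36 ± 0.07, adjusted p = 0.0026). Neither overlapped between groups. Lamb1, the widespread beta chain, had 26.9 ± 0.615 FPKM in control and 32.4 ± 2.35 FPKM in treated cells (SD, n = 3), with a log2 fold change of 0.23 ± 0.07 (adjusted p = 0.0281). It was named after its values were seen, and its call was lost without control 1 (adjusted p = 0.122), control 2 (adjusted p = 0.0518), control 3 (adjusted p = 0.0975) or treated 1 (adjusted p = 0.157). The ratio of Lamb2 to Lamb1 FPKM was 0.584, 0.593 and 0.551 in control and 0.849, 0.758 and 0.928 in treated libraries.

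Lama5, Lamb1 and Lamc1 together form the most common laminin of adult epithelia, and their summed FPKM was 96.0 ± 3.54 in control and 124 ± 6.22 in treated cells. Lamb3, a beta chain of the laminin of skin-type anchoring complexes, was far lower, at 0.352, 0.557 and 0.430 FPKM in control and 0.975, 0.780 and 1.03 FPKM in treated libraries. Its groups did not overlap, with a log2 fold change of 1.01 ± 0.23 (adjusted p = 0.00453). Lama3 did not pass (adjusted p = 0.837). The differences between chains were not tested.

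The 4 separately named matrix genes all changed, 3 upward and 1 downward. Fn1, encoding fibronectin (ENSMUSG00000026193, chromosome 1, 71624679 to 71692334), had 108, 128 and 127 FPKM in control and 256, 232 and 236 FPKM in treated libraries. Among the matrix members it was the most abundant in every library, and the treated values lay well above the controls. Its log2 fold change was 0.96 ± 0.09 (adjusted p = 2.8e-05). Fn1 made up 18.7, 20.2 and 20.7% of the summed matrix FPKM in control and 32.7, 32.9 and 32.2% in treated libraries.

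Tnc, a large anti-adhesive glycoprotein of wounds and tumour stroma (ENSMUSG00000028364, chromosome 4, 63878022 to 63965252), had 0.916, 1.15 and 0.958 FPKM in control and 3.20, 2.66 and 2.65 FPKM in treated libraries. All treated values were over the highest control, with a log2 fold change of 1.45 ± 0.14 (adjusted p = 3.5e-05). Dcn, a small proteoglycan that coats collagen fibrils (ENSMUSG00000019929, chromosome 10, 97315471 to 97354005), had 0.175, 0.177 and 0.221 FPKM in control and 0.897, 1.04 and 0.836 FPKM in treated libraries. This was the highest fold change among the tested members, at 2.24 ± 0.20 on the log2 scale (adjusted p = 1.8e-05), from a low level. With the GC correction it was 1.43.

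Sparc, a collagen-binding matricellular protein (ENSMUSG00000018593, chromosome 11, 55285326 to 55314009), had 93.4, 98.0 and 94.7 FPKM in control and 79.7, 74.6 and 74.9 FPKM in treated libraries. The groups were narrow and did not overlap, with a log2 fold change of -0.36 ± 0.07 (adjusted p = 0.00311). With the GC correction its fall shrank to -0.14 (adjusted p = 0.0326). The call was lost when that correction was joined with the library number as a block (adjusted p = 0.0717).

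**Figure D3:**
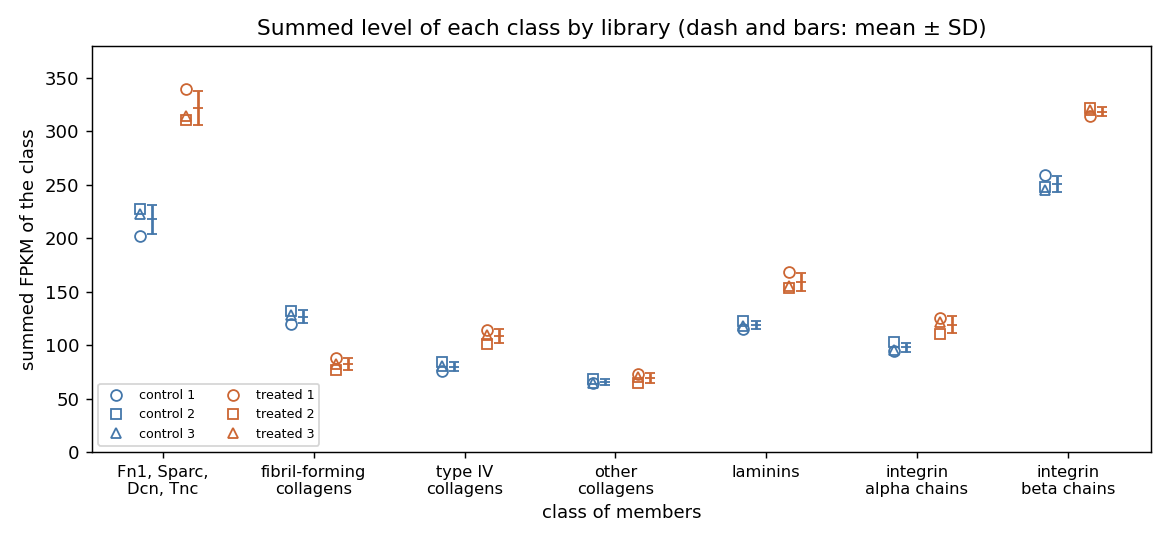
Summed FPKM of each role class in each library, control and treated, with the group mean ± SD (n = 3) beside the points. Fibril-forming collagens are lower in treated libraries, type IV collagens, laminins, matrix glycoproteins and both kinds of integrin chain are higher, and the other collagens overlap.

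On the receptor side, 4 of 11 tested alpha chains rose and 0 fell. The 3 chains in the table that recognise the RGD peptide of fibronectin and related proteins rose, while 0 of 3 laminin-binding chains and 0 of 1 tested collagen-binding chains passed in either direction, also at an unadjusted p under 0.05 and with DESeq2. With the GC correction 1 of the 3 laminin-binding chains was called higher. The difference between these ligand groups was not tested. Itga5, the alpha chain of the classical fibronectin receptor (chromosome 15, 103252713 to 103275190), had 37.7, 40.96 and 39.2 FPKM in control and 55.6, 48.4 and 56.1 FPKM in treated libraries. No library of either group crossed into the other, and the log2 fold change was 0.41 ± 0.09 (adjusted p = 0.00484).

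Itgav, which pairs with several beta chains to bind vitronectin and fibronectin, had 3.26, 2.85 and 2.82 FPKM in control and 5.42, 5.65 and 3.92 FPKM in treated libraries. Treated 3 was lower than the other treated libraries but above all controls, and the log2 fold change was 0.71 ± 0.12 (adjusted p = 0.00109). Itga2b, best known as the platelet fibrinogen receptor chain, had 2.34, 2.50 and 2.67 FPKM against 4.10, 3.43 and 3.96 FPKM (log2 fold change 0.58 ± 0.12, adjusted p = 0.0033). The beta chain gene Itgb3 reached at most 18 estimated counts in any library and was not tested. The summed FPKM of 4 other platelet genes (Pf4, Gp9, Gp1bb and Ppbp) ranged from 1.24 to 3.13 in control and from 1.76 to 3.54 in treated libraries, and overlapped. Of these genes Ppbp was called higher, at 0.749, 0.283 and 0.438 FPKM against 1.18, 2.34 and 0.893 FPKM (log2 fold change 1.55 ± 0.45, adjusted p = 0.0172). Its part in the Itga2b result was not tested.

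Itga3, the most abundant alpha chain in the control cells and a laminin receptor, had 42.8, 48.4 and 42.3 FPKM in control and 49.97, 42.3 and 49.0 FPKM in treated libraries. The groups overlapped, with treated 1 and treated 3 above every control and treated 2 at the level of the lowest (log2 fold change 0.04 ± 0.10, adjusted p = 0.753), and the GC correction called it (log2 fold change 0.23, adjusted p = 0.00459). Itga6, another laminin-binding chain, had 6.41, 5.80 and 6.25 FPKM against 7.81, 7.63 and 5.67 FPKM, where treated 3 was lower than every control (log2 fold change 0.16 ± 0.11, adjusted p = 0.258). Without treated 3 it was called, at 0.27 (adjusted p = 0.015). Itga7 did not pass (adjusted p = 0.495). The collagen-binding Itga10 stood at 0.202, 0.239 and 0.192 FPKM against 0.185, 0.272 and 0.186 FPKM (log2 fold change -0.02 ± 0.29, adjusted p = 0.971), and Itga1 and Itga11 were too faint to test. Itga2, Itga4, Itga8 and Itga9 were not analysed here.

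Alpha chains of leukocyte integrins were low, under 1 FPKM in every library. Itgae, whose product pairs with the beta chain of Itgb7 to bind E-cadherin, had 0.478, 0.585 and 0.572 FPKM in control and 0.565, 0.679 and 0.659 FPKM in treated libraries (adjusted p = 0.505). It shares 2810 bases with Haspin on the opposite strand, which stood at 4.35 FPKM in control and 2.40 FPKM in treated cells, so Itgae is uncertain. Itgax, the CD11c chain of dendritic cells, had 0.161, 0.323 and 0.195 FPKM in control and 0.436, 0.489 and 0.734 FPKM in treated libraries. It was called higher (log2 fold change 1.25 ± 0.33, adjusted p = 0.0117), and lost the call without treated 3 (adjusted p = 0.0544). The pan-leukocyte gene Ptprc was at 0 in 5 libraries and at 0.00292 FPKM in treated 3. Csf1r reached at most 0.024 FPKM.

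Of the beta chains 6 of 9 were tested, 2 rose (Itgb1 and Itgb7), 0 fell and 4 did not pass; at an unadjusted p under 0.05 the counts were 3 and 0, and with DESeq2 2 and 0. Itgb1, the common partner of collagen, laminin and fibronectin receptor chains (chromosome 8, 129412135 to 129459681), had 49.8, 34.2 and 43.2 FPKM in control and 73.3, 93.5 and 61.3 FPKM in treated libraries. Control 2 was the lowest and treated 2 the highest by a wide margin, and the groups did not overlap. The log2 fold change was 0.81 ± 0.15 (adjusted p = 0.00175).

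Itgb7 (chromosome 15, 102124430 to 102140379), a beta chain of lymphocyte homing receptors, was the most abundant integrin chain in every library. It had 133, 134 and 125 FPKM in control and 156, 148 and 171 FPKM in treated libraries, which is 51.3, 53.9 and 51.2% and then 49.7, 46.1 and 53.4% of all beta chain FPKM. The levels did not overlap, but the share did. The log2 fold change of 0.24 ± 0.09 only just passed (adjusted p = 0.0487), and the call was lost without control 1 (adjusted p = 0.13), control 2 (adjusted p = 0.0653), control 3 (adjusted p = 0.223), treated 1 (adjusted p = 0.104) or treated 3 (adjusted p = 0.0944), with DESeq2-type size factors (adjusted p = 0.0765) and with no filter on low counts (adjusted p = 0.0705).

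Itgb5, which pairs with the chain of Itgav to bind vitronectin, had 67.1, 70.4 and 66.8 FPKM in control and 71.9, 69.3 and 75.7 FPKM in treated libraries. The groups overlapped at control 2 and treated 2 (log2 fold change 0.05 ± 0.08, adjusted p = 0.646), and the GC correction called it (log2 fold change 0.25, adjusted p = 0.00257). The ratio of Itgb5 to Itgav FPKM was 20.6, 24.7 and 23.7 in control and 13.3, 12.3 and 19.3 in treated libraries. Itgb4, the hemidesmosome chain, had 8.05, 8.26 and 8.51 FPKM against 11.3, 8.84 and 10.3 FPKM and just missed the threshold (log2 fold change 0.26 ± 0.10, adjusted p = 0.0518). It passed under 11 of the 20 alternatives, among them the fit without treated 2 (adjusted p = 0.00573). With the GC correction 10 integrin chains passed, all higher, in place of 6.

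Of the rows that share only the start of an integrin symbol, 1 of 3 tested rose. Itgb1bp1, a cytoplasmic protein that binds the tail of the Itgb1 chain, had 4.89, 4.15 and 4.28 FPKM in control and 6.70, 6.32 and 5.76 FPKM in treated libraries, without overlap. Its log2 fold change was 0.46 ± 0.11 (adjusted p = 0.0055). Its row overlaps Cpsf3 on the opposite strand, which stood at 17.8 FPKM in control and 7.09 FPKM in treated cells. Itgbl1, a secreted protein with integrin-like repeats, had 8.14, 5.90 and 6.26 FPKM against 7.56, 8.75 and 6.80 FPKM (log2 fold change 0.15 ± 0.13, adjusted p = 0.359). With the GC correction its direction turned, to -0.31 (adjusted p = 0.0164).

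Set side by side, matrix genes summed to 609 ± 29.1 FPKM in control and 741 ± 39.8 FPKM in treated cells, and integrin chains to 349 ± 7.24 FPKM and 438 ± 5.29 FPKM (SD, n = 3). The ratio of matrix to integrin FPKM was 1.63, 1.81 and 1.80 in control and 1.78, 1.64 and 1.66 in treated libraries, which overlapped. Without Fn1 the matrix genes stood at 488 ± 18.7 FPKM and 499.6 ± 27.3 FPKM, which overlapped, and the ratio to integrins was 1.32, 1.44 and 1.43 against 1.20, 1.10 and 1.12, which did not. Alpha chains summed to 97.9 ± 4.51 FPKM and 119 ± 8.07 FPKM, and beta chains to 251 ± 7.59 FPKM and 319 ± 3.86 FPKM. Beta chain RNA thus exceeded alpha chain RNA in every library. Fn1 and the chains of its classical receptor, Itga5 and Itgb1, were all higher in treated cells. Of 8 laminins tested 5 rose, whereas 0 of 3 laminin-binding alpha chains passed (1 with the GC correction). Col1a1, Col1a2 and Col3a1 were lower. Itga10, the only collagen-binding alpha chain that was tested, had means of 0.211 and 0.214 FPKM and did not pass. Itga1 and Itga11 were too faint to test, so the receptors of these collagens were hardly covered. Itgb1 is also the partner of collagen receptor chains. The matrix receptor Ddr2 had 4.97 ± 0.286 FPKM in control and 3.58 ± 0.644 FPKM in treated cells. It was called lower (log2 fold change -0.51 ± 0.12, adjusted p = 0.00499, and -0.64 with the GC correction). Another matrix receptor, Ddr1, did not pass (adjusted p = 0.111), and the GC correction called it higher (0.34, adjusted p = 9.1e-04).

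Genes that work beside these members gave a mixed picture. Of all 16212 rows tested, 23.0% rose and 23.5% fell, to be read beside the counts of each list below. Of 26 adaptors that link integrins to the cytoskeleton, 25 were tested, 3 rose and 13 fell, with a median log2 fold change of -0.43. Ilk, the scaffold that binds beta chain tails, had 70.02, 70.4 and 73.6 FPKM in control and 36.7, 33.4 and 35.4 FPKM in treated libraries. Its groups were far apart (log2 fold change -1.06 ± 0.07, adjusted p = 4.7e-06). The actin crosslinker Actn4, at 228 ± 5.90 FPKM and 229 ± 13.7 FPKM, did not pass (adjusted p = 0.827), although the GC correction called it higher (0.19, adjusted p = 0.00167). The rise of Itgb1bp1, described above, was the adaptor rise with the smallest p.

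Other matrix receptors numbered 14, of which 3 rose and 3 fell, with a median log2 fold change of 0.01. Cd47, an integrin-associated thrombospondin receptor, had 12.9, 11.1 and 11.98 FPKM in control and 18.8, 21.2 and 18.8 FPKM in treated libraries, a log2 fold change of 0.67 ± 0.08 (adjusted p = 8.6e-05), or 0.31 with the GC correction (adjusted p = 0.0066). The syndecan Sdc1 had 30.9 ± 1.88 FPKM in control and 22.4 ± 1.36 FPKM in treated cells, a log2 fold change of -0.50 ± 0.08 (adjusted p = 0.00065), or -0.29 with the GC correction. Cd151, a tetraspanin that binds laminin receptors, did not pass (103 ± 3.20 FPKM and 110.2 ± 8.76 FPKM, adjusted p = 0.627), and the GC correction called it higher (0.28, adjusted p = 0.00147).

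Among 26 other matrix proteins 17 were tested, 4 rose and 4 fell, with a median log2 fold change of -0.07. Spp1, encoding the RGD protein osteopontin, had 295, 269.7 and 282 FPKM in control and 996, 1333 and 877 FPKM in treated libraries. It exceeded Fn1 in every library, with a log2 fold change of 1.88 ± 0.13 (adjusted p = 4.6e-06). Ccn2, a matricellular growth factor, stood at 73.7 ± 5.55 FPKM in control and 44.3 ± 5.01 FPKM in treated cells, a log2 fold change of -0.77 ± 0.10 (adjusted p = 0.0002). Efemp2, an elastic fibre protein, did not pass (adjusted p = 0.066).

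Of 16 genes for collagen folding and secretion 15 were tested, 5 rose and 5 fell, with a median log2 fold change of -0.08. The risers included chains of prolyl 4-hydroxylase, the enzyme that stabilises the triple helix. P4ha2 had 12.2, 14.4 and 13.4 FPKM in control and 30.6, 28.9 and 30.4 FPKM in treated libraries, a log2 fold change of 1.13 ± 0.09 (adjusted p = 1.1e-05). Serpinh1, the collagen chaperone, had 318, 333 and 333 FPKM against 228, 206 and 230.4 FPKM, without overlap, and a log2 fold change of -0.60 ± 0.08 (adjusted p = 0.00025). Ppib, a prolyl isomerase, did not pass (log2 fold change 0.17 ± 0.08, adjusted p = 0.129), and the GC correction called it higher (0.31, adjusted p = 0.00311).

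The line was checked against markers of its own label and of other cells. Of 8 epithelial and colon markers, 3 reached 1 FPKM in any library (Krt8, Krt18 and Krt20), and the list summed to 153 to 169 FPKM in control and 224 to 238 FPKM in treated libraries. Krt18 rose from 65.4 ± 5.94 to 163 ± 9.97 FPKM (SD, n = 3, adjusted p = 7.5e-06 by edgeR), while Krt20 fell from 90.3 ± 3.00 to 57.5 ± 4.22 FPKM (adjusted p = 6.2e-05). The epithelial genes Epcam and Cdh1 were listed at 0 in every control and reached at most 0.027 and 0.0609 FPKM in treated libraries, so these defining markers were absent or near 0. Of 8 fibroblast markers, 3 reached 1 FPKM, and their sum, 907 to 978 FPKM in control and 1272 to 1347 FPKM in treated libraries, was nearly all Vim. The smooth muscle actin gene Acta2, at 0.765, 1.20 and 0.907 FPKM in control and 0.149, 0.139 and 0.190 FPKM in treated libraries, fell (log2 fold change -2.58 ± 0.31, adjusted p = 0.00012). The growth factor receptor Pdgfrb, at 8.24 ± 0.751 FPKM and 7.00 ± 0.378 FPKM, also fell (log2 fold change -0.27 ± 0.10, adjusted p = 0.0437), and lost its call with the GC correction (adjusted p = 0.618). Acta2 and Pdgfrb went in the same direction as Col1a1, Col1a2 and Col3a1, but the list was split. Of its 4 tested markers 1 rose and 2 fell. Vim was the riser (log2 fold change 0.45 ± 0.07, adjusted p = 5.0e-04), and Pdgfra did not pass (adjusted p = 0.425). Lum and Thy1 stayed at or under 0.0378 FPKM, and Fap was not analysed here. The 6 endothelial markers summed to at most 0.282 FPKM. Of the 8 leukocyte markers 2 reached 1 FPKM (Cd68 and Lyz2), and the list summed to 30.4 to 30.7 FPKM in control and 58.4 to 66.5 FPKM in treated libraries, nearly all of it Cd68. The part of Vim, Acta2, Pdgfrb, Krt18, Krt20 and Cd68 in the results was not tested.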

How the data were processed

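RNA of 3 control and 3 treated CT26.WT libraries was read from 1 deposited table with FPKM and estimated counts per gene. Per the submitters' processing notes, the authors used edgeR, DESeq2, StringTie 2.1.6, HISAT2 2.2.1 and cutadapt 1.9. Roles, parameters and genome build: not given in the sources used here. Their coordinates are printed as deposited. The deposited estimated counts are whole numbers in which 4 and 8 are over-represented (4 occurs 4054 times, against a mean of 2539.5 for its neighbours), so about 4 counts stand for 1 fragment. The deposited FPKM values were used for levels, sums and ratios, and 0 columns of samples were left unused. Total counts of 62328377 to 81821380 per library limit the precision of members with few counts.

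Counts were tested across the whole table with edgeR 4.0.16 in R 4.3.3 (filterByExpr, TMM, quasi-likelihood test, 2-sided), with Benjamini-Hochberg adjustment over 16212 rows and a threshold of 0.05. Every adjusted p is from this test unless another setting is named. Alternatives used DESeq2 1.42.0, limma 3.58.1 on log2(FPKM + 1) or log2(FPKM + 0.1) where FPKM averaged 1 or more, other scalings and filters (none, or a mean count of at least 100), counts divided by 4, protein-coding rows, a loess correction for transcript GC (span 0.4, GENCODE M21, 94.4% of rows matched), the library number as a block, and fits without each library. The fitting code was tested on simulated data. Members described singly were, per role class, up to 3 rising and 3 falling with the smallest p and the most abundant one, plus 11 chosen by name; of the neighbouring lists, the riser and the faller with the smallest p and the most abundant gene that did not pass. Members and lists were chosen with earlier results of these data known. Col5a1, Lamb1, Itgb4, Itgb5, Col6a1, Col18a1 and Lama3, the members named only as not passing or not tested, the receptors Ddr1 and Ddr2, and the CCAAT and TATAAA motifs were added after values were seen. One member is counted but not reported here and is not drawn. Groups and library numbers come from the sample titles.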

Additional observations from a re-analysis of the deposited data

How the results depend on the processing

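Of the 28 members called, 18 kept their call and direction under every alternative that gave them a value: all 20 for 16 of them, and 18 for Dcn and Lamb3, which were too low for both limma fits. Over the fits that left out 1 library, 22 to 27 members were called (17 to 21 higher, 5 to 6 lower), with 16 to 20 matrix genes (11 to 14 higher, 5 to 6 lower) and 5 to 7 integrin chains (all higher, 0 lower). Without both libraries numbered 2, 24 were called (20 higher, 4 lower). Among the 20 alternatives the GC correction alone moved a count of calls by over 1.5 times, to 10 integrin chains in place of 6, and to 37 members in all, of which 27 were shared with the 28 in the same direction. It moved the log2 fold change by over 1.5 times for Itgav (0.46), Itgb7 (0.42), Lamb1 (0.45), Lamc1 (0.58), Col4a5 (0.55), Col1a2, Col5a1, Dcn, Sparc, Cd47 and Sdc1 (-0.29), those without a value here being given in the report. The GC correction turned Col6a1 to 0.035 and Itgbl1 to -0.306, and with the block joined to it they stood at 0.0353 and -0.301. Itgbl1 was at -0.009 without both libraries numbered 2. Itga10, at -0.02, was at 0.0649 with library totals, 0.11 with upper quartile scaling, 0.002 with no filter, 0.0208 with protein-coding rows only, 0.224 with the GC correction and 0.195 with that correction and the block; leaving out 1 library gave -0.227 (treated 2) to 0.0892 (control 2). With 1 library left out, Itga3, at 0.04, ranged from -0.0177 (without control 3) to 0.116 (without control 2), and Itgb5 from -0.0069 (without treated 3) to 0.0824 (without control 2). None of these members passed with the settings of the report, and the cause was not tested.

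The library numbers showed no sign of pairing: deviations of same-numbered libraries correlated at 0.04, -0.10 and 0.01. With so few libraries this check cannot show whether they were paired by design. With the number as a replicate block, 25 members were called (19 higher, 6 lower), all 25 among the 28, 19 of them matrix genes and 5 integrin chains, and 3070 of all rows rose and 3205 fell in place of 3735 and 3813. Col4a2 (adjusted p = 0.0692), Itgb7 (adjusted p = 0.129) and Lamb1 (adjusted p = 0.101) lost their call under the block. Col14a1 (adjusted p = 0.0898), Col9a3 (adjusted p = 0.0736), Col20a1 (adjusted p = 0.147) and Lamb1 (adjusted p = 0.0502) lost theirs without both libraries numbered 2, and Col20a1 with no filter (adjusted p = 0.0725). Limma called 22 members, 21 shared. For the 12 members at no more than 12 estimated counts in every library, no change was detectable at this depth.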
